A study of Mus musculus with 56 samples.

Results

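This account covers 10 autophagy genes in mouse liver RNA, namely Ulk1, Becn1, Map1lc3a, Map1lc3b, Sqstm1, Atg5, Atg7, Tfeb, Gabarapl1 and Lamp2. They were chosen by name from the 23813 genes of the deposited expression table, and all 10 were found. RNA from 12 livers of male mice had been sequenced, with 4 libraries in each of 3 groups. For 16 days every mouse ate low iodine chow containing 0.15% propylthiouracil (PTU), an inhibitor of thyroid hormone production. Hypothyroid WT mice received vehicle, and hyperthyroid WT mice were injected intraperitoneally with 5 µg of the active hormone triiodothyronine (T3) on the last 4 to 6 days. Hypothyroid L-NCORdeltaID mice, kept on a mixed background of inbred strains, received PTU without T3. Their liver makes a form of NCOR1, a corepressor of nuclear receptors, without the domains that bind the thyroid hormone receptor (TR). By the study's methods the 4 libraries of a group are biological replicates, while the labels do not name the individual mice. Ages of the sequenced mice are not given, but the study's summary of its animals, which covers more mice than were sequenced, lists L-NCORdeltaID mice as younger on average than WT mice on PTU with or without T3. The labels do not give the strain of the WT mice, so genotype, age and background cannot be told apart in comparisons with the mutant.

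Macroautophagy encloses cytoplasm, organelles or lipid droplets in a double membrane, the autophagosome, which fuses with the lysosome and is digested there. The kinase ULK1 starts the process, the Beclin 1 complex marks the membrane with a phospholipid, and a conjugation system with ATG7 and ATG5 attaches proteins of the ATG8 family (LC3 and GABARAP proteins) to it. In liver, autophagy supplies amino acids and fatty acids during fasting, and thyroid hormone is known to act on hepatic lipid turnover through it.

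The values are RPKM, reads per kilobase of transcript, scaled to the number of aligned reads, so that levels can be compared between genes. Steps between the lowest RPKM values put the depth at 29.1 to 38.2 M reads in hypothyroid WT, 21.3 to 26.1 M in hyperthyroid WT and 38.1 to 42.6 M in L-NCORdeltaID libraries, so the hyperthyroid libraries are the shallowest. The T3 target genes checked the labels. Thrsp, a regulator of lipogenesis, rose from 321.7 ± 128 to 1597 ± 652 RPKM with T3 (mean ± SD, n = 4, log2 fold change 2.29, limma adjusted p = 8.13e-04). Dio1, the hepatic deiodinase, was at 458.6 to 640.6 RPKM in the hyperthyroid libraries. In hypothyroid WT replicates 1 to 4 Dio1 was at 0.719, 6.64, 57.7 and 8.98 RPKM, and in L-NCORdeltaID libraries at 0.567 to 20.9 RPKM. Thrsp was at 843.6 ± 294 RPKM in L-NCORdeltaID livers. It was called neither against hypothyroid WT (limma adjusted p = 0.0542) nor between hyperthyroid WT and the mutant (limma adjusted p = 0.084). Total Ncor1 RNA was 14.7 ± 0.665 RPKM in hypothyroid WT and 13.0 ± 0.844 RPKM in L-NCORdeltaID mice (adjusted p = 0.204), and a value per gene cannot show the deleted exons. The 10 genes with the highest mean level over the 12 libraries took 18.8 to 22.4% of summed RPKM in hypothyroid WT but 11.8 to 14.4% in hyperthyroid WT libraries. Over all 13941 genes tested for T3, the median change on the log2 scale was 0.23 as deposited and 0.01 after each library was divided by its median ratio to the other libraries (median-ratio scaling). Small T3 changes are therefore given on both scales.

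The genes were placed on mm9 (NCBIM37, GENCODE M1). Ulk1 lies on the minus strand of chromosome 5 from 111213507 to 111239116, Map1lc3a on the plus strand of chromosome 2 from 155102033 to 155103809 and Atg7 on the plus strand of chromosome 6 from 114593149 to 114810431. These 3 genes passed the test for T3 on both scales, and the 250 bases before their transcription start are shown for that reason, 5′ to 3′ in the direction of transcription. The windows are chr5:111239117-111239366 for Ulk1, chr2:155101783-155102032 for Map1lc3a and chr6:114592899-114593148 for Atg7. Capitals mark a GC box (GGGCGG on either strand) or a cAMP response element (TGACGTCA).
Ulk1: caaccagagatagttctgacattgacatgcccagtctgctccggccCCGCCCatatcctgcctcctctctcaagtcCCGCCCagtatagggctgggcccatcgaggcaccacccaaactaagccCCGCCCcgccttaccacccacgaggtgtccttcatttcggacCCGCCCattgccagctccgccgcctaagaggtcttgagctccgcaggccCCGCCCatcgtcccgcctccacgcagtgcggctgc
Map1lc3a: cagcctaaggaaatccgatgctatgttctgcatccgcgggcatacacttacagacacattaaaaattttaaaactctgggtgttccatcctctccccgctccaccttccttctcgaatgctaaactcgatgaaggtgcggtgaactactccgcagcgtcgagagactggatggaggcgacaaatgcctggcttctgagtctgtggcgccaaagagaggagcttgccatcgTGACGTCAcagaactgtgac
Atg7: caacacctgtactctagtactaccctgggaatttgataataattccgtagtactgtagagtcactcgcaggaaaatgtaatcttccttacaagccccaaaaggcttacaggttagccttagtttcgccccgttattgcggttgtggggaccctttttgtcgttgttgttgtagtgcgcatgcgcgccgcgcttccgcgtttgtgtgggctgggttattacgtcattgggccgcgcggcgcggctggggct
The window of Ulk1 held 5 GC boxes, whereas those of Map1lc3a and Atg7 held none. Of all 13436 windows of genes tested and placed, 54.6% held a GC box and 3.96% at least 5, and 7 of the 10 autophagy genes held one. Map1lc3a and Atg5 each had the cAMP response element 20 bases before the start, a motif found in 2.54% of all windows and searched only after the sequences had been read.

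Promoters of autophagy and lysosome genes are known targets of TFEB, which binds the CLEAR element GTCACGTGAC, a longer form of the E-box CACGTG. An E-box was present in the 250 bases before the start of 1 of the 10 genes (Atg5, starting 33 bases before it) and in 8.17% of all windows. The CLEAR element was in 0 of the 10 windows and in 0.491% of all windows. The receptor for T3 binds direct repeats spaced by 4 bases (DR4, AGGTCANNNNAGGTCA), which were searched on both strands within 5000 bp of the start. A complete DR4 was found at 0 of the 10 genes and at 0.581% of all genes, and a DR4 with at least 11 of the 12 half-site bases at 1 gene, Atg5, and at 10.1% of all genes. At 10 matching bases, the number rose to 7 of 10 genes, beside 68.9% of all genes. Of these, 1 lay in the gene body of Ulk1, 3197 bp after the start, on the minus strand at chr5:111235911-111235926, with its half-sites in capitals.
Ulk1 repeat: TGGTTAtttaAGGTCA
Map1lc3a repeat: GGGTGAcgtcAGGTCA
The second lay 146 bp after the start of Map1lc3a, on the minus strand at chr2:155102171-155102186. Both lay in an acetylated region. So did the matches with 10 bases at Map1lc3b and Lamp2, which were not called with T3 on either scale. The best match of Atg7, which was called on both, had 9 of 12 bases and lay outside such a region. Letter matches describe these sequences and do not show that a protein bound there.

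The deposited list of H3 acetylated regions, merged by the authors over H3K27Ac and H3K9Ac and over hypothyroid and hyperthyroid WT livers, gives positions only. A region covered the transcription start of 9 of the 10 autophagy genes, of 93 of 96 other pathway genes and of 86.1% of all 13436 genes. The exception was Tfeb, named Tcfeb in the annotation, where the start used for the lowest-numbered transcript had no region but another start of the gene did. The region at Ulk1 was 23543 bp long and ran from 1116 bp before the start to 22426 bp into the gene, which is 25610 bp long. Sqstm1 (20930 bp), Lamp2 (19441 bp) and Gabarapl1 (16176 bp) also had regions of at least 15000 bp, as did 6.04% of all genes. The regions at Atg7 (8118 bp), Atg5 (4226 bp), Map1lc3b (4208 bp), Map1lc3a (3991 bp) and Becn1 (2890 bp) were shorter. The median was 8118 bp for the autophagy genes and 3928 bp for all genes with a region. Since the list holds no read numbers, no acetylation level per mouse or condition can be given from it. The 4 genes with long regions include both the gene with the highest T3 response (Ulk1) and the 3 genes with the highest RNA levels, whereas the region at Map1lc3a, which also rose, was among the shortest.

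**Figure D1:**
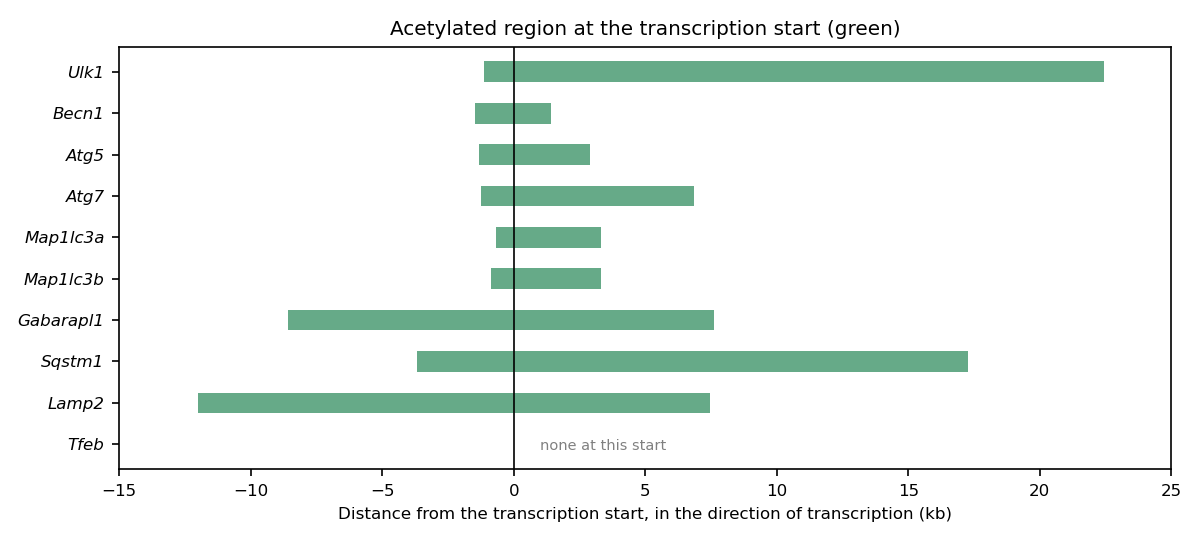
Acetylated regions that cover the transcription start of each autophagy gene, by distance from the start in kb (x axis) in the direction of transcription. The bars of Ulk1, Sqstm1, Lamp2 and Gabarapl1 are 16176 to 23543 bp long, the others 2890 to 8118 bp, and Tfeb has none at the start used.

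In hypothyroid WT liver the 10 genes spanned a wide range. Lamp2, a lysosomal membrane protein, had the highest level at 242.9 ± 8.98 RPKM, followed by Gabarapl1 (160.3 ± 18.9) and the cargo receptor Sqstm1 (159.9 ± 13.0 RPKM), which overlapped each other. Map1lc3b (29.5 ± 2.36 RPKM), Becn1 (25.8 ± 1.93) and Atg5 (23.8 ± 0.986) formed a lower group in which neighbours overlapped. They were followed by Map1lc3a (17.5 ± 1.82), Ulk1 (14.3 ± 2.96) and Atg7 (13.8 ± 0.995 RPKM), where again neighbours overlapped, and the transcription factor Tfeb was lowest at 3.59 ± 0.719 RPKM. Of the 2 LC3 genes, Map1lc3b was thus above Map1lc3a in every hypothyroid WT library.

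**Figure D2:**
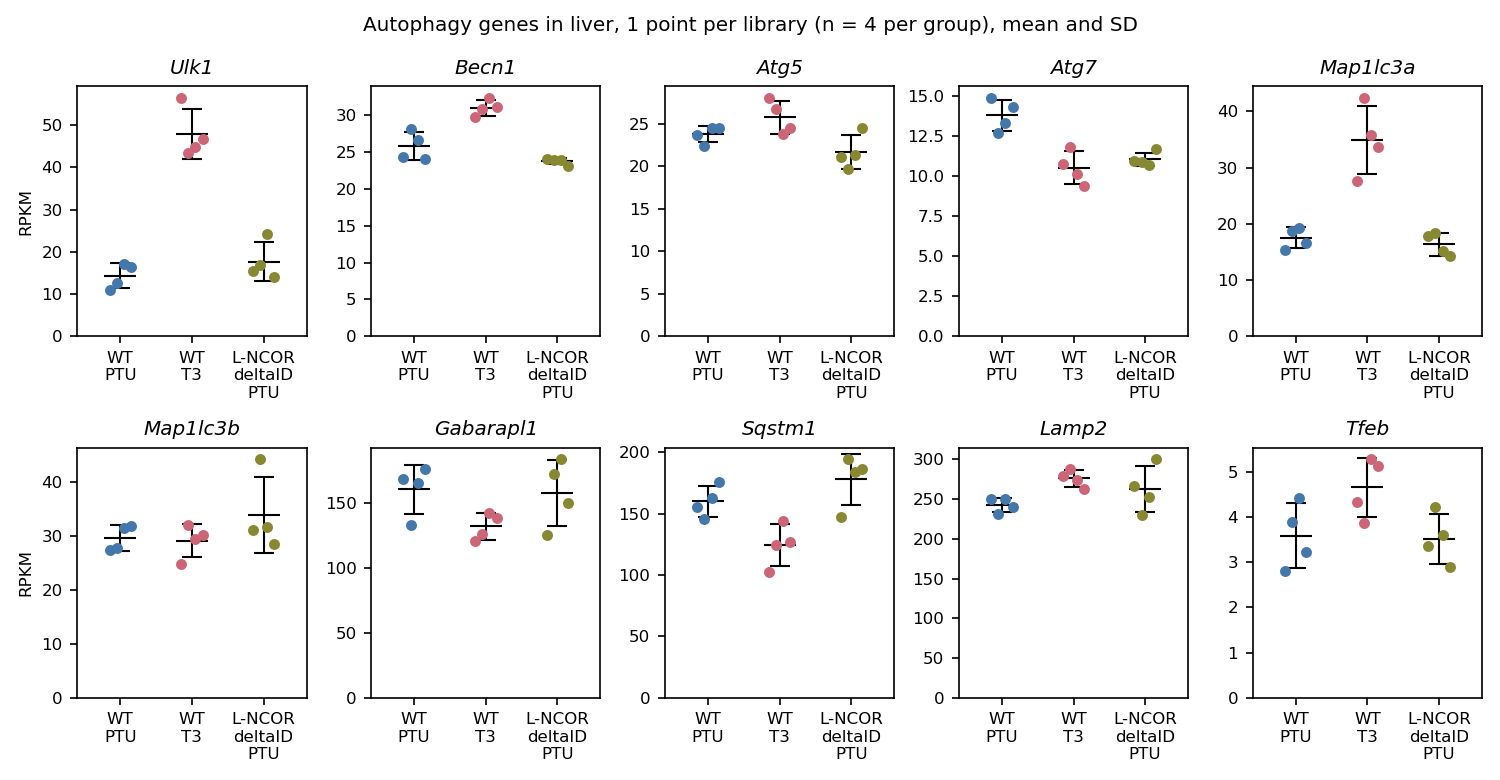
RPKM (y axis, from 0, own scale per gene) of the 10 autophagy genes in hypothyroid WT (WT PTU), hyperthyroid WT (WT T3) and hypothyroid L-NCORdeltaID livers, 1 point per library, with mean and SD (n = 4). The T3 points of Ulk1 (43.4 to 56.5) and Map1lc3a (27.6 to 42.4) lie above both other groups, and those of Sqstm1 (102 to 144.2) lie below both.

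T3 raised the RNA of the autophagy-starting kinase Ulk1 by 3.36-fold and that of the LC3 gene Map1lc3a by 1.97-fold. Atg7, the activating enzyme of the conjugation system, fell to 0.763 of its hypothyroid level. Of the 10 genes, 2 rose and 1 fell at an adjusted p under 0.01, or 20% and 10%, while 24.5% of all 13941 genes tested rose and 7.71% fell. The count is therefore close to the background. After median-ratio scaling 2 rose (Ulk1, Map1lc3a) and 3 fell (Atg7, Sqstm1, Gabarapl1), where 12.2% of all genes rose and 14.0% fell. Between the scales, the share of higher calls among all called genes moved from 76% to 46.6%.

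Ulk1 encodes the serine/threonine kinase that starts autophagosome formation. Its levels were 11.01, 12.7, 17.2 and 16.4 RPKM in hypothyroid WT replicates 1 to 4 and 56.5, 43.4, 44.7 and 46.7 RPKM in the hyperthyroid ones. In L-NCORdeltaID livers they were 15.4, 17.0, 24.3 and 14.1 RPKM. All hyperthyroid libraries were at least 43.4 RPKM and all other libraries at most 24.3 RPKM. The log2 fold change with T3 was 1.75 (95% interval 1.41 to 2.09, limma adjusted p = 3.81e-05), and 1.51 (1.17 to 1.85, adjusted p = 1.04e-04) after scaling. It stayed called in 8 of 8 fits that left out 1 library, on either scale. Ulk1 was the only one of the 10 genes with a log2 fold change above 1 at an adjusted p under 0.01, a group that held 8.28% of all genes.

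Becn1 encodes Beclin 1, a subunit of the class III PI3-kinase complex that nucleates the membrane. It was at 24.4, 28.1, 26.7 and 24.1 RPKM in hypothyroid WT and at 29.8, 30.8, 32.4 and 31.2 RPKM in hyperthyroid WT libraries. The L-NCORdeltaID libraries, at 24.03, 23.95, 23.9 and 23.2 RPKM, were the lowest. No hyperthyroid library overlapped with either other group, yet the log2 difference for T3 was 0.27 (adjusted p = 0.0115) as deposited and 0.03 (-0.12 to 0.17, adjusted p = 0.758) after scaling. The difference as deposited thus had the size of the shift of all genes. Without hypothyroid WT replicate 2 the adjusted p of Becn1 was 0.00985 as deposited.

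Of the conjugation genes, Atg7 encodes the E1-like enzyme that activates ATG12 and the ATG8 proteins. It was at 14.9, 12.7, 13.3 and 14.3 RPKM in hypothyroid WT and at 10.7, 11.8, 10.2 and 9.38 RPKM in hyperthyroid WT libraries. L-NCORdeltaID libraries were at 10.9, 10.9, 10.7 and 11.7 RPKM, so that both other groups lay below all hypothyroid WT libraries. With T3 the log2 fold change was -0.39 (-0.59 to -0.19, adjusted p = 0.00624), and -0.63 (-0.87 to -0.39, adjusted p = 0.00159) after scaling. As deposited the call was lost, at adjusted p of 0.0124 to 0.0202, without hypothyroid WT replicate 1, 3 or 4 or without hyperthyroid WT replicate 1, 3 or 4. After scaling it stayed in 8 of 8 such fits. The 3 transcripts listed for Atg7 were at 13.8 to 14.4 RPKM in hypothyroid WT, with ratios of 0.761 to 0.763 after T3. Transcripts of 1 gene can count the same reads, so this likeness is no separate support for the call. Atg5, which is joined to ATG12 to form part of the E3-like complex, was at 22.5 to 24.6 RPKM in hypothyroid WT and 23.8 to 28.1 RPKM in hyperthyroid WT libraries, and these overlapped (log2 difference 0.11, adjusted p = 0.228, and -0.13, adjusted p = 0.284, after scaling).

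The ATG8 family did not move as one. Map1lc3a (LC3A) was at 15.4, 18.8, 19.2 and 16.7 RPKM in hypothyroid WT and at 27.6, 42.4, 35.9 and 33.6 RPKM in hyperthyroid WT libraries. L-NCORdeltaID libraries were at 17.8, 18.4, 15.1 and 14.2 RPKM, within or below the range of hypothyroid WT. The log2 fold change with T3 was 0.98 (0.69 to 1.27, adjusted p = 3.77e-04), and 0.74 (0.44 to 1.04, adjusted p = 0.0021) after scaling, and it was called without any 1 library in 8 of 8 fits on both scales. A second transcript listed for Map1lc3a, which can count the same reads, had a ratio of 2.01. Map1lc3b (LC3B) was at 27.3 to 31.7 RPKM in hypothyroid WT and 24.7 to 31.9 RPKM in hyperthyroid WT libraries, with a log2 difference of -0.03 (-0.24 to 0.18, adjusted p = 0.827) and of -0.27 (adjusted p = 0.047) after scaling. With T3, then, the mean of Map1lc3a (34.9 ± 6.10 RPKM) was no longer below that of Map1lc3b (29.0 ± 3.06 RPKM). Gabarapl1, of the GABARAP branch, was at 168.2, 132.7, 164.7 and 175.5 RPKM in hypothyroid WT and at 120.5, 126.1, 142.2 and 138.1 RPKM in hyperthyroid WT libraries. Hypothyroid WT replicate 2 lay among the hyperthyroid ones. Its log2 difference of -0.28 did not pass as deposited (adjusted p = 0.0473) but fell by 0.52 on the log2 scale after scaling (adjusted p = 0.00267).

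Sqstm1 encodes p62, a receptor that ties ubiquitinated cargo to LC3 and is itself degraded by autophagy. It was at 155.4, 145.3, 162.8 and 176.1 RPKM in hypothyroid WT and at 102, 124.8, 144.2 and 126.6 RPKM in hyperthyroid WT libraries. Every hyperthyroid library was below every hypothyroid WT library, though the highest of the former (144.2) was close to the lowest of the latter (145.3 RPKM). The log2 difference between the group means was -0.37 (-0.62 to -0.12, limma adjusted p = 0.021) as deposited. After scaling Sqstm1 fell by 0.61 on the log2 scale (adjusted p = 0.00121), in 8 of 8 fits without 1 library. Lamp2, which is needed for the fusion of autophagosomes with lysosomes, was at 249.5, 231.6, 250.7 and 239.6 RPKM in hypothyroid WT and at 279.2, 287.7, 274.6 and 262.7 RPKM in hyperthyroid WT libraries. The groups did not overlap, but the log2 difference of 0.18 (adjusted p = 0.0497) turned to -0.06 (-0.24 to 0.13, adjusted p = 0.617) after scaling. A second Lamp2 transcript, which can count some of the same reads, was at 143 ± 6.69 and 171.1 ± 5.87 RPKM, a ratio of 1.20. Tfeb, a transcription factor that activates autophagy and lysosome genes, was at 2.80, 3.89, 4.43 and 3.23 RPKM in hypothyroid WT and at 4.34, 3.88, 5.28 and 5.13 RPKM in hyperthyroid WT libraries. These overlapped, with log2 differences of 0.38 (adjusted p = 0.0741) and, after scaling, 0.14 (adjusted p = 0.438). Over the 10 genes, 4 were higher and 2 lower in all hyperthyroid than in all hypothyroid WT libraries, where 35.8% of all genes were higher and 10.8% lower. The median log2 difference of the 10 genes was 0.15, beside 0.23 for all genes, and -0.09 after scaling, beside 0.01.

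**Figure D3:**
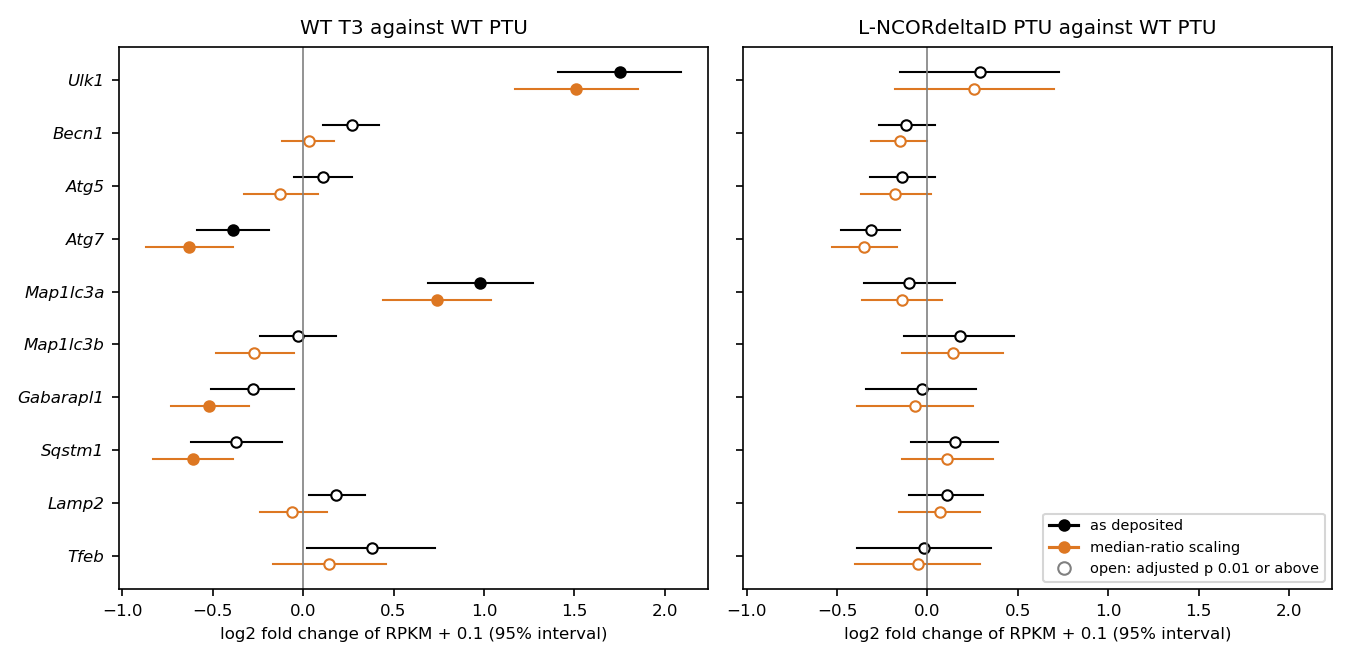
Log2 fold change (x axis) with 95% interval for each autophagy gene, as deposited (black) and after median-ratio scaling (orange), for T3 (left) and L-NCORdeltaID (right) against hypothyroid WT. Filled points passed an adjusted p of 0.01. With T3 only Ulk1, Map1lc3a and Atg7 are filled on both scales, and with L-NCORdeltaID no point is filled.

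Some markers of other liver cells also moved with T3. Their counts stand beside 24.5% of all genes tested that rose and 7.71% that fell as deposited. After scaling these shares were 12.2% and 14.0%. All 6 markers of Kupffer cells and macrophages rose on both scales, and their summed level was 50.6 to 71.2 RPKM in hypothyroid WT, 154.5 to 244.9 RPKM in hyperthyroid WT and 57.2 to 150 RPKM in L-NCORdeltaID libraries. Of 5 leukocyte markers found, 3 rose as deposited and 2 after scaling, with summed levels of 1.67 to 4.22 and 4.68 to 22.0 RPKM in hypothyroid and hyperthyroid WT. Of the 6 hepatocyte markers, Alb and Ttr fell and Hnf4a rose as deposited, and only Ttr fell after scaling, while the summed level went from 37230 to 48710 RPKM down to 18850 to 27300 RPKM. Stellate markers rose for 3 of 6 genes as deposited and 1 after scaling (45.6 to 64.1 and 77.2 to 87.3 RPKM), and sinusoidal endothelial markers for 2 of 6 and 1 (47.5 to 70.8 and 67.6 to 79.6 RPKM). Of 5 cholangiocyte markers tested, Krt7 rose as deposited and Sox9 fell on both scales (11.96 to 16.1 and 10.4 to 19.2 RPKM). No marker was at 0 in a whole group, and no marker was called in L-NCORdeltaID livers. In bulk samples a change in the number of cells of a type and a change in RNA per cell cannot be told apart. The part of these cells in the values above was not tested.

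Hypothyroid L-NCORdeltaID livers were set beside the T3 pattern to describe loss of the TR-binding domains of NCOR1 without hormone. Whether repression of the 10 genes was relieved was not tested. Even Thrsp, with a log2 difference of 1.39 as deposited, was not called in this comparison (limma adjusted p = 0.0542). A lack of calls therefore does not show a lack of change. None of the 10 autophagy genes was called in hypothyroid L-NCORdeltaID against hypothyroid WT livers by limma, on either scale, where 0.725% of 13790 genes were called higher and 0.544% lower (0.689% and 0.602% after scaling). An unadjusted p under 0.05 was reached by 1 of the 10 genes (Atg7) and by 2831 of all 13790 genes as deposited, and by 2 of the 10 and 2854 of all 13784 genes after scaling, so that the 10 genes did not exceed the background. Atg7 came closest, with a log2 difference of -0.31 (-0.48 to -0.15, adjusted p = 0.0463), and -0.35 (adjusted p = 0.0422) after scaling. Ulk1 differed by 0.29 (-0.15 to 0.73, adjusted p = 0.432), an interval whose upper end is below the lower end for T3, although the 2 comparisons share the hypothyroid WT libraries. Map1lc3a differed by -0.10 (-0.35 to 0.15, adjusted p = 0.656). Map1lc3b was at 31.0, 44.1, 31.6 and 28.4 RPKM in L-NCORdeltaID libraries, where replicate 2 stood above the rest, and Sqstm1 at 147.2, 194.1, 184.0 and 186.3 RPKM. Lamp2 spanned 230.6 to 300.0 RPKM, Gabarapl1 125.1 to 183.2, Atg5 19.7 to 24.5 and Tfeb 2.90 to 4.23 RPKM, and each of these overlapped with hypothyroid WT. Among the 10 genes, 0 were higher and 2 (Becn1 and Atg7) lower in all mutant libraries than in all hypothyroid WT libraries, and 7.78% and 5.36% of all genes were.

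Whether T3 and the mutation left the liver at different levels was tested by setting hyperthyroid WT against hypothyroid L-NCORdeltaID livers, which differ in genotype and hormone together. Ulk1 was 2.74-fold higher in hyperthyroid WT (log2 fold change 1.46, 1.08 to 1.83, limma adjusted p = 2.96e-04), Map1lc3a 2.11-fold (1.08, 0.76 to 1.39, adjusted p = 5.60e-04) and Becn1 1.31-fold (0.38, 0.24 to 0.53, adjusted p = 0.0019). These 3 calls compare with 15.5% of 14017 genes higher and 5.70% lower. After scaling Ulk1 (1.26, adjusted p = 0.00118) and Map1lc3a (0.88, adjusted p = 0.00159) remained, Becn1 did not (0.19, adjusted p = 0.0433), and Sqstm1 was lower by 0.71 on the log2 scale, a difference of -0.71 (adjusted p = 0.00326), where 7.51% of genes were higher and 9.19% lower. Without L-NCORdeltaID replicate 3 the scaled adjusted p of Sqstm1 was 0.0132. As deposited it was 0.0133, and 0.00842 without L-NCORdeltaID replicate 1. Gabarapl1 passed after scaling only without L-NCORdeltaID replicate 1 (adjusted p = 0.00696). Atg7 passed on neither scale, with a difference of -0.07 (-0.27 to 0.12, adjusted p = 0.529) and of -0.27 (-0.50 to -0.04, adjusted p = 0.0779) after scaling. Kupffer cell markers were called higher in hyperthyroid WT for 3 of 6 genes in this comparison, and for 1 after scaling.

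The genes whose levels over the 12 libraries ran most alike were looked up among 10649 others with a mean of at least 1 RPKM, as a description in which the 3 groups set most of the spread. For Ulk1 these were Frmd8 (Pearson r 0.978), the lipid-activated receptor Ppard (0.976) and the zinc finger factor Sall1 (0.972). Frmd8 was at 4.38, 33.1 and 5.75 RPKM and Ppard at 2.13, 12.9 and 3.28 RPKM on average in hypothyroid WT, hyperthyroid WT and L-NCORdeltaID livers. For Map1lc3a they were B3gnt9 (0.980), Camkk2 (0.978), which encodes a kinase that activates AMPK, and the DNA repair enzyme Ung (0.977). For Atg7 they were the vesicular transporter Slc17a8 (0.934), Retreg3 (0.896), a relative of a receptor for autophagy of the endoplasmic reticulum, and the microRNA gene Mir1902 (0.893). The libraries were made from RNA with a poly(A) tail, so reads at Mir1902 need not come from the microRNA itself. Slc17a8 was at 7.89, 1.67 and 2.17 RPKM. Among the autophagy genes themselves, Ulk1 and Map1lc3a ran at r = 0.86 and Becn1 with each of them at 0.80 and 0.93. Sqstm1 (-0.70 and -0.73), Atg7 (-0.68 and -0.50) and Gabarapl1 (-0.48 and -0.60) ran against both. All these r are of values as deposited, which hold the shift of all genes with T3, and were not computed after scaling. Becn1 differed with T3 by 0.27 on the log2 scale as deposited and by 0.03 after scaling.

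The wider pathway was described with 96 further genes in 9 lists. With T3, 22 of the 95 tested rose and 10 fell as deposited (23.2% and 10.5%), close to the 24.5% and 7.71% of all genes. After scaling 9 rose and 21 fell (9.47% and 22.1%), beside 12.2% and 14.0% of all genes. The counts per list below are to be read beside these shares of all genes. Some lie near them, such as 18.2% higher for the PI3-kinase list and 20% for the mTORC1 and AMPK list as deposited. The lists shared 19 calls between the scales, and 13 genes were called higher only as deposited and 11 lower only after scaling. Without hypothyroid WT replicate 4 or 1, the 32 calls as deposited became 19 or 20.

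The list of the ULK1 complex held the highest rise of the pathway genes, that of the kinase Ulk2. Ulk2, the second kinase of this kind, went from 10.7, 12.7, 14.9 and 9.72 RPKM in hypothyroid WT to 38.7, 41.4, 36.8 and 34.6 RPKM in hyperthyroid WT libraries, without overlap (log2 fold change 1.66, adjusted p = 2.43e-05, and 1.42 after scaling, adjusted p = 7.51e-05). Of the 4 genes of this list 3 rose as deposited and 2 after scaling. Of 11 genes of the PI3-kinase complex and WIPI proteins, 2 rose and 1 fell, and 1 rose and 1 fell after scaling. Wipi1, which binds the phospholipid made by the complex, rose by 1.20 on the log2 scale (adjusted p = 6.58e-04, and 0.96 with adjusted p = 0.00399 after scaling). Wdr45, a relative of it, fell by 0.52 (adjusted p = 0.00137, and by 0.76 after scaling, adjusted p = 7.52e-05). After scaling the call of Wipi1 was lost without hypothyroid WT replicate 1 or 4 or hyperthyroid WT replicate 4 (adjusted p of 0.0117 to 0.0139).

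For membrane supply, 2 of 4 genes tested rose as deposited and 0 after scaling, and Atg9b was too low to be tested. In the conjugation list 4 of 11 rose, and after scaling 1 rose and 1 fell. Atg4c, a protease that trims ATG8 proteins, went from 4.51, 4.30, 4.75 and 3.80 to 9.92, 8.51, 9.28 and 9.93 RPKM (log2 fold change 1.10, adjusted p = 3.65e-05, and 0.86 after scaling, adjusted p = 1.38e-04). Of 12 cargo receptors 3 rose and 3 fell, and after scaling 0 rose and 4 fell. Bnip3, a mitochondrial receptor for mitophagy, went from 55.5, 46.5, 48.6 and 53.2 RPKM to 17.4, 14.6, 13.3 and 16.8 RPKM. That is a log2 fold change of -1.71 (adjusted p = 7.47e-06), and of -1.95 (adjusted p = 1.15e-05) after scaling.

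All 4 transcription factors of this list, which does not hold Tfeb, were called on both scales. On either scale 75% of them rose and 25% fell, beside the shares of all genes given above. Tfeb itself was called on neither scale (limma adjusted p = 0.0741, and 0.438 after scaling). Mitf, a relative of TFEB, was low, at 0.408 to 0.566 RPKM in hypothyroid WT and 1.07 to 1.72 RPKM in hyperthyroid WT libraries, and rose by 1.18 on the log2 scale (adjusted p = 6.94e-04, and 0.97 after scaling, adjusted p = 0.00117), Foxo1 by 0.71 (adjusted p = 5.33e-04, and 0.47, adjusted p = 0.00614), and Tfe3, another relative of TFEB, by 0.66 (adjusted p = 0.00108, and 0.42, adjusted p = 0.00938, which held in 2 of 8 scaled fits without 1 library), whereas Foxo3 fell by 0.54 (adjusted p = 0.00326, and by 0.78, adjusted p = 5.45e-04). FOXO factors activate autophagy genes during fasting. The call of Foxo3 as deposited was lost without hypothyroid WT replicate 1 or 4 (adjusted p of 0.0113 and 0.0117). The scaled call of Foxo1 was lost without hypothyroid WT replicate 3 or hyperthyroid WT replicate 1, 2 or 4 (0.0139 to 0.0181). Of 13 genes of autophagosome-lysosome fusion none was called as deposited, 4 had an unadjusted p under 0.05 by limma (7877 of all 13941 genes did), and 2 fell after scaling, or 15.4% beside 14.0% of all genes.

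Lysosomal genes leaned the other way from Ulk1. Of 21 tested, 2 rose and 5 fell as deposited, and 1 rose and 10 fell after scaling, a share of 47.6% beside 14.0% of all genes. Hexa, a subunit of beta-hexosaminidase, fell by 0.98 on the log2 scale (adjusted p = 0.00153, and by 1.22 after scaling, adjusted p = 6.27e-04). Ctsa, the protective protein cathepsin A, fell by 0.61 (adjusted p = 0.00233, and by 0.85 after scaling, adjusted p = 3.16e-04). Psap and Ctsl rose as deposited, Psap alone after scaling. Macrophages express lysosomal genes at high levels, and their markers rose in the same libraries, as given above. The part of these cells in the lysosomal values was not tested. In the list of mTORC1 and AMPK genes, 3 of 15 rose, and 1 rose and 2 fell after scaling. Prkaa1, a catalytic subunit of AMPK, rose by 0.80 (adjusted p = 4.86e-04, and 0.57 after scaling, adjusted p = 0.00474). Its scaled call was lost without hypothyroid WT replicate 1 or 4 or hyperthyroid WT replicate 1, 2 or 4 (adjusted p of 0.0102 to 0.0146).

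**Figure D4:**
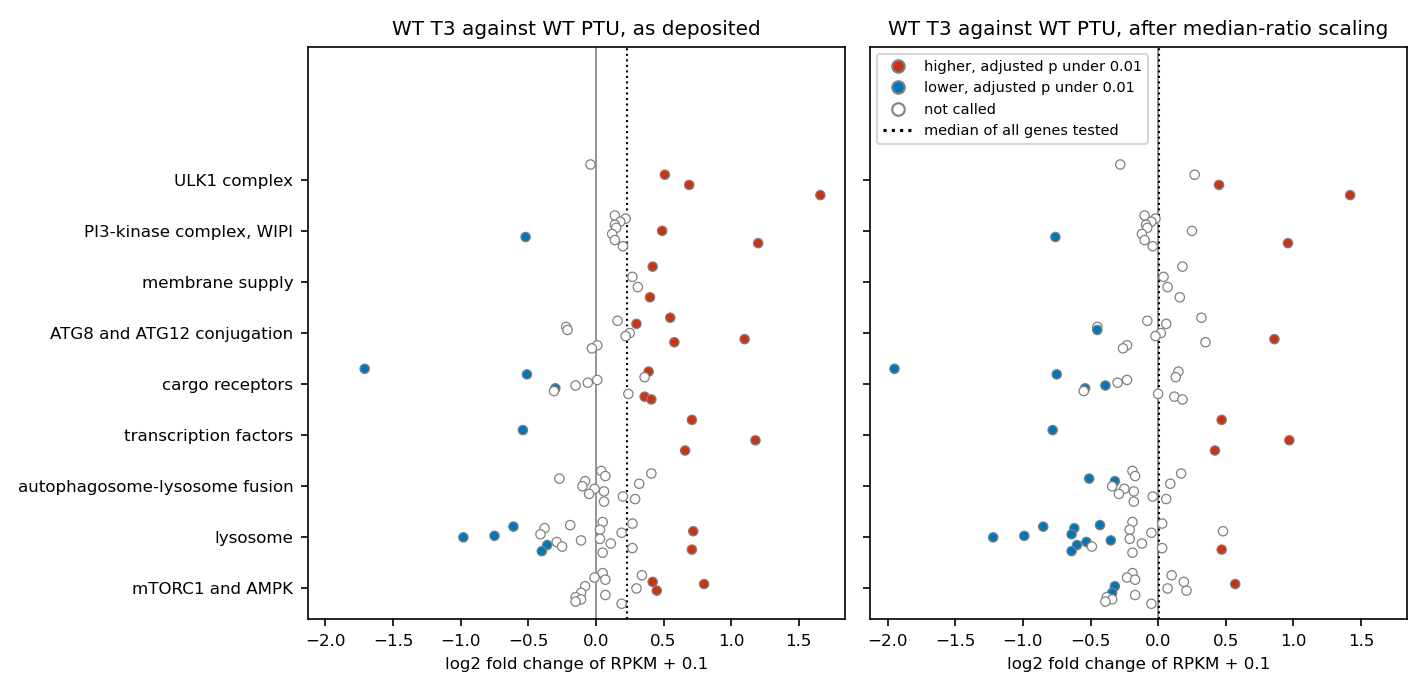
Log2 fold change with T3 (x axis) of 95 pathway genes in 9 lists, as deposited (left) and after median-ratio scaling (right). Red and blue points passed an adjusted p of 0.01, and the dotted line is the median of all genes tested (0.23 and 0.01). Bnip3 at -1.71 and Ulk2 at 1.66 are the ends of the left panel.

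In L-NCORdeltaID livers 1 of the 95 pathway genes was called, on both scales. Ctsl, the lysosomal protease cathepsin L, was at 51.9, 39.9, 48.5 and 53.1 RPKM in hypothyroid WT and at 138, 190, 143 and 100 RPKM in L-NCORdeltaID libraries, without overlap (log2 fold change 1.53, 1.13 to 1.94, limma adjusted p = 0.00259). The call was lost without hypothyroid WT replicate 2, 3 or 4 or L-NCORdeltaID replicate 3, at adjusted p of 0.0102 to 0.0118. Summed Kupffer cell markers were at 57.2 to 150 RPKM in these L-NCORdeltaID libraries and 50.6 to 71.2 RPKM in hypothyroid WT, and their part in the value of Ctsl was not tested. With T3, Ctsl rose by 0.72 on the log2 scale as deposited (adjusted p = 0.00555) and by 0.48 without passing after scaling (adjusted p = 0.0326). As deposited that call stayed in 1 of 8 fits without 1 library, the one without hyperthyroid WT replicate 1, where the scaled difference also passed (adjusted p = 0.00751). Ulk2 was not called in the mutant (log2 difference -0.38, adjusted p = 0.167), nor was Bnip3 (0.10, adjusted p = 0.761).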

How the data were processed

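Per the study's methods, the authors used STAR for alignment to mm9 and HOMER for RefSeq transcript levels, deposited as RPKM scaled to the aligned reads of each library. Per the labels, each library joins runs from 2 sequencers. Whether counting used strand is not given in the sources used here. Read counts and the 44 ChIP-seq samples were not analysed here, and acetylated regions were used as deposited. The first transcript row stood for each gene, and 1 row without a gene name (at most 0.000785% of summed RPKM) was left out. The table has 0 columns left unused. Depth was estimated from RPKM steps and GENCODE M1 lengths (52.6 to 61.2% of low values came out whole within 0.04 reads).

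Log2(RPKM + 0.1) was tested with limma 3.58.1 (R 4.3.3), with a variance trend, Benjamini-Hochberg adjustment over all genes tested and only the 2 groups compared. Genes needed at least 0.1 RPKM in at least 4 libraries. Calls are at an adjusted p under 0.01. The fit was tested on simulated data. Transcription starts are those of the lowest-numbered protein-coding GENCODE M1 transcript. Sequence is from NCBIM37. The 10 genes, the pathway and marker lists and the tests were chosen with earlier results of these data known. Pathway genes are named where called on both scales with a mean of at least 1 RPKM in the higher group, at most 6 per direction by size (1 of these is not reported here), and 3 genes by likeness for each of 3 members. Tfe3, Psap, Atg9b, the marker genes, and the mutant and T3 values of genes named in the other comparison were chosen after their values were seen. Alternatives are listed in the closing section.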

Additional observations from a re-analysis of the deposited data

How the results depend on the processing

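The T3 count of 3 called autophagy genes became 5 with median-ratio scaling (also with the replicate block added, an alternative chosen after seeing the data, as was leaving out libraries after scaling), 7 at an adjusted p under 0.05, 1 when a change above 1 on the log2 scale was also asked for, and 2 to 4 without 1 library. After scaling it was 5 without any 1 library. The L-NCORdeltaID count of 0 became 1 at an adjusted p under 0.05 (Atg7), and was 0 without any 1 library. The count of 3 for hyperthyroid WT against L-NCORdeltaID was 3 to 4 without 1 library, and 2 to 4 after scaling. Of the pathway genes, 32 called with T3 became 49 at an adjusted p under 0.05, 5 when that size was asked for, and 19 to 28 without 1 library (23 to 29 after scaling). The 1 called in L-NCORdeltaID became 0 with no filter on low values or with the replicate block (with or without scaling), 2 with all 12 libraries in 1 fit, 3 at an adjusted p under 0.05, and 0 to 1 without 1 library. The causes were not tested. With the replicate block Atg7 was lost for T3 (adjusted p = 0.0208) and Becn1 for hyperthyroid WT against L-NCORdeltaID (0.0155), and calls over all genes went from 4488 to 3606 for T3 and from 175 to 45 for L-NCORdeltaID. Replicate numbers are shared between groups. Deviations of same-numbered libraries correlated at -0.07 to 0.08 (T3) and -0.14 to 0.20 (L-NCORdeltaID). In both comparisons the library of the same number was the best match for replicates 1 and 3 but not for replicates 2 and 4. With 4 libraries per group these correlations cannot show whether the numbers pair the samples. Atg7 was also lost for T3 with no filter (0.0152) and without the variance trend (0.0118), and Becn1 was gained with all 12 libraries in 1 fit. No called gene changed sign in any alternative run. Pseudocounts of 1 and 0.01, a mean of at least 1 RPKM and the row with the highest mean kept all counts within 1.5 times. Over all genes, no filter gave 43 calls for L-NCORdeltaID. The acetylated count of 9 stayed 9 within 1000 bp or when the region had to reach past the start on both sides, and was 10 for any start of the gene.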
